A study of Ictidomys tridecemlineatus with 15 samples.

Results

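Transcript levels of the supraoptic nucleus in interbout arousal (IBA) were set against those of torpor and of the active state together, to find genes with a peak or a trough in arousal. The 5 IBA libraries of the 15 in the series were compared with the 5 active and the 5 torpor libraries by taking, for each gene, the IBA mean minus the mean of both other state means on the scale log2(value + 1). Of 16993 genes, 15501 reached a value of 1 or more in 5 or more libraries and were tested. A peak was counted where all 5 IBA libraries lay above all 10 others, and a trough where all 5 lay below all 10 others.

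Hibernating ground squirrels spend weeks in torpor with a cold body and very little transcription and translation, and interrupt it with short arousals in which they rewarm and RNA and protein synthesis resume. An arousal is therefore a warm state within the hibernation season, between the cold torpid state and the warm state of the active season. The supraoptic nucleus is a hypothalamic nucleus of large neurosecretory neurons that send peptide hormones to the posterior pituitary, work that places a high load on their endoplasmic reticulum and secretory vesicles.

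The animals were thirteen-lined ground squirrels: active squirrels that were not hibernating, hibernating squirrels in torpor, and hibernating squirrels in interbout arousal, each state with 5 biological replicates. The labels give no sex, age, time of day, body temperature or time within the bout. The nuclei were cut out by needle from thick coronal slices, so neurons, glia and vessel cells of the block were sequenced together, and in such bulk tissue fewer cells of a type and less RNA per cell cannot be told apart. Levels are given in normalised CPM, a read count per library size with a further scaling of each library, and differences are on the log2(value + 1) scale with their standard error unless a CPM value is named.

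The libraries held 15844561 to 26113341 reads, and no replicate pair was identical. On a principal component analysis of the tested genes, the first component (28.4% of the variance) ran from the active libraries (−51.1 to −16.2) through IBA (−1.62 to 19.7) to torpor (−2.28 to 39.3). Active library 4, at −51.1, and torpor libraries 4 and 5, at 39.3 and 34.9, stood apart from the rest of their states on this component, and torpor library 2 stood apart on the second component (15.7% of the variance) at −47.5. IBA library 4, at 19.7, stood apart on the first component from the other IBA libraries, at −1.62 to 3.25. Where the call of a named gene against the mean of both states was gained or lost without these libraries, this is said beside the gene. The listed neuron markers summed to 4379 to 5209 CPM in IBA, 4502 to 5217 in the active state and 5228 to 5874 in torpor. P-values measure the spread between these libraries.

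The IBA mean lay between the active and the torpor mean for 7403 genes (47.8% of those tested), above both for 4073 and below both for 4025. Between torpor and active 3018 genes were called (19.5%). The median absolute difference of IBA from the mean of both other states was 0.123, against 0.229 for torpor minus active. Over all tested genes the difference had a median of 0.00 and a range from −0.29 at the 5th to 0.38 at the 95th percentile, and 18 genes had a difference of at least 1 in either direction.

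In the fit across all genes with limma-trend and Benjamini-Hochberg adjustment, 11 genes passed an adjusted p of 0.05 for IBA against the mean of both other states (0.0710% of those tested). Of these, 3 were higher in IBA (0.0194%) and 8 were lower (0.0516%). The 3 that rose were Slc19a3, Znf366 and Ccng2. The 8 that fell were Manf, Dnajb9, Fkbp2, Znf331 and 4 genes with an identifier and no symbol in the table. At an unadjusted p under 0.05 there were 1012 higher genes (6.53%) and 963 lower genes (6.21%). An averaged contrast can pass when IBA differs from 1 state only, so the comparison with each state was read beside it. These comparisons share the IBA libraries and are therefore not independent. Against the active state 93 genes were higher in IBA (0.600%) and 109 lower (0.703%). Against torpor 306 were higher (1.97%) and 149 lower (0.961%). Higher against each state at an adjusted p of 0.05 were 3 genes (0.0194%), Ccng2, Ifih1 and Kdm4a, and lower against each were 2 (0.0129%), Manf and Ndufb11. Ccng2 and Manf were the genes called in all 3 of these ways.

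**Figure D1:**
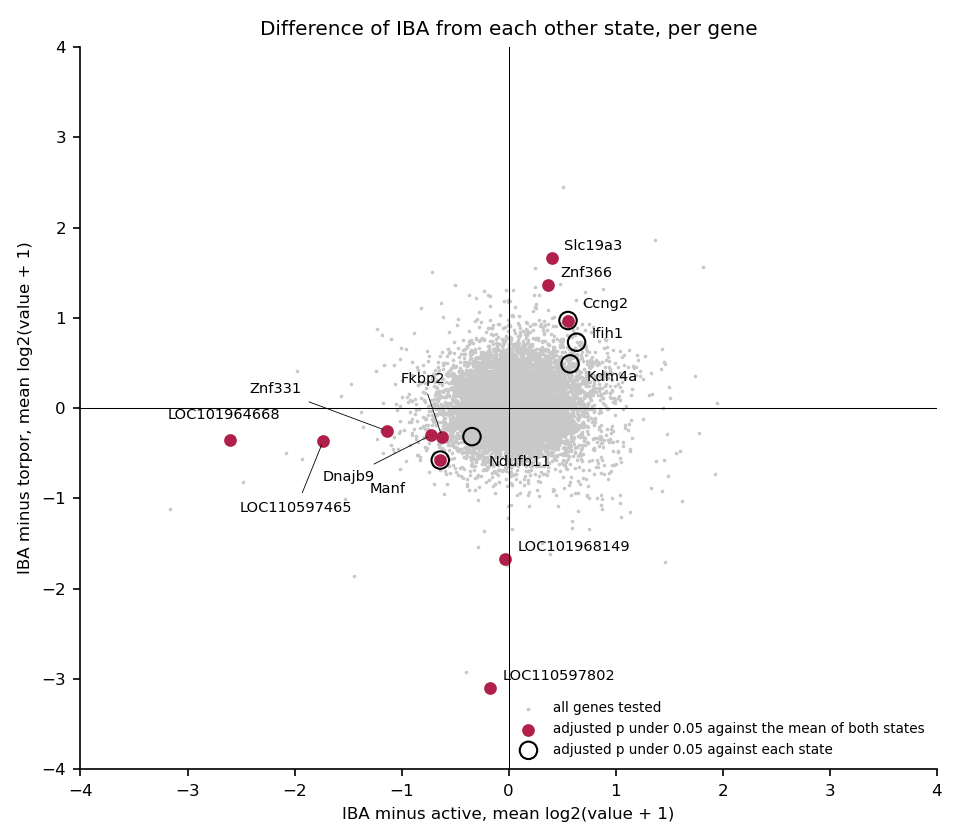
Each point is 1 of 15501 tested genes, with the difference of IBA from active on the x axis and from torpor on the y axis, both as mean log2(value + 1). Filled red points mark the 11 genes that passed against the mean of both states and open circles the 5 that passed against each state; only Ccng2 and Manf carry both marks, and LOC110597802 and LOC101964668 lie near an axis because they differ from 1 state.

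Ccng2, which encodes cyclin G2, an unconventional cyclin associated with cell cycle exit and a target of FOXO transcription factors, was the clearest peak. Its levels were 31.8, 35.5, 36.5, 33.6 and 33.0 CPM in the IBA libraries. They were 19.5, 22.6, 25.4, 19.9 and 27.8 CPM in the active libraries and 20.4, 18.2, 16.4, 13.96 and 16.2 CPM in the torpor libraries. All 5 IBA libraries lay above all 10 others, and the lowest of them stood 14.4% above the highest of the others, the widest gap of any peak. The difference from the mean of both states was 0.76 ± 0.10 (adjusted p = 0.00417), a 1.70-fold level. Against active it was 0.56 ± 0.12 (adjusted p = 0.0326) and against torpor 0.97 ± 0.12 (adjusted p = 3.32e-04). Torpor lay below active by −0.41 (adjusted p = 0.0229), so IBA was the highest of the 3 states and torpor the lowest. The call against the mean of both states held with each of the 15 libraries left out in turn (adjusted p from 0.00188 to 0.0267). It was lost without IBA libraries 2 and 3 together (adjusted p = 0.0957).

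Manf, an endoplasmic reticulum protein that is induced and secreted under protein folding stress, was the counterpart among the lowered genes. It stood at 101, 74.3, 82.5, 80.6 and 96.0 CPM in IBA, at 118, 140, 147, 142 and 129 CPM in the active libraries and at 95.6, 144, 156, 143 and 117 CPM in the torpor libraries. IBA lay below every active library and below 4 of the 5 torpor libraries; torpor library 1 fell inside the IBA range. The difference was −0.61 ± 0.11 (adjusted p = 0.0377), with −0.64 ± 0.12 against active (adjusted p = 0.0214) and −0.58 ± 0.12 against torpor (adjusted p = 0.0206). The active and torpor means, 135 ± 11.8 and 131 ± 24.4 CPM (SD, n = 5 each), differed by −0.06 (adjusted p = 0.765). The call against the mean of both states rested on nearly every library: it ended when any of 12 of the 15 was left out (adjusted p up to 0.168), and held only when the library left out was active 1, torpor 1 or torpor 5. The difference itself stayed between −0.66 and −0.55. The call was also lost by edgeR on read counts recovered from the values (adjusted p = 0.0537). A fit with a block for the replicate number lost it as well (adjusted p = 0.177).

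Slc19a3, a transporter of thiamine, the vitamin whose diphosphate is a cofactor of pyruvate dehydrogenase, showed the largest rise among the called genes. Its levels were 16.1, 16.6, 13.6, 20.8 and 19.97 CPM in IBA, 14.01, 13.6, 10.01, 13.9 and 12.8 CPM in the active libraries and 5.38, 4.22, 4.25, 4.76 and 5.29 CPM in the torpor libraries. IBA lay above every torpor library and overlapped the active libraries through IBA library 3. The difference from the mean of both states was 1.03 ± 0.12 (adjusted p = 7.49e-04). The difference was 1.66 ± 0.14 against torpor (adjusted p = 4.40e-06) and 0.40 ± 0.14 against active (adjusted p = 0.134). Torpor lay below active by −1.26 (adjusted p = 3.51e-05). The call held with each library left out in turn (adjusted p up to 0.00710).

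Znf366, a zinc finger protein known as a co-repressor of nuclear receptors, followed the same order of states. It stood at 23.0, 20.6, 20.8, 23.2 and 17.7 CPM in IBA, at 14.9, 16.1, 13.8, 14.2 and 22.2 CPM in the active libraries and at 8.35, 5.55, 8.67, 7.34 and 8.34 CPM in the torpor libraries. Active library 5 lay within the IBA range and the torpor libraries did not. The difference was 0.86 ± 0.13 (adjusted p = 0.00836), with 1.36 ± 0.15 against torpor (adjusted p = 8.29e-05) and 0.37 ± 0.15 against active (adjusted p = 0.178). Torpor lay below active by −0.99 (adjusted p = 4.03e-04). The call of Znf366 held with each library left out in turn (adjusted p up to 0.0494). It was lost without IBA libraries 2 and 3 together (adjusted p = 0.0957) and with a replicate block (adjusted p = 0.0596).

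Dnajb9 and Fkbp2, both residents of the endoplasmic reticulum, fell beside Manf. Dnajb9, a co-chaperone that passes misfolded proteins on for degradation, stood at 152, 125, 120, 128 and 173 CPM in IBA, at 218, 244, 258, 198 and 238 CPM in the active libraries and at 152, 194, 182, 164 and 166 CPM in the torpor libraries. The IBA libraries lay below all active libraries and overlapped the torpor libraries. The difference was −0.52 ± 0.09 (adjusted p = 0.0458), with −0.73 ± 0.11 against active (adjusted p = 0.00399) and −0.30 ± 0.11 against torpor (adjusted p = 0.131). Torpor lay below active by −0.43 (adjusted p = 0.0115). Fkbp2, a prolyl isomerase that helps proteins fold, stood at 258, 245, 239, 248 and 243 CPM in IBA, at 364, 366, 367, 379 and 427 CPM in the active libraries and at 255, 340, 305, 364 and 289 CPM in the torpor libraries. The IBA values were tightly grouped, and torpor library 1 alone of the 10 others reached into them. The difference was −0.47 ± 0.08 (adjusted p = 0.0282), with −0.62 ± 0.09 against active (adjusted p = 0.00399) and −0.32 ± 0.09 against torpor (adjusted p = 0.0627). Torpor lay below active by −0.30 (adjusted p = 0.0296). Both calls depended on most libraries. The call of Dnajb9 held only when active 4, IBA 5 or torpor 1 was the library left out, and otherwise ended (adjusted p up to 0.184). The call of Fkbp2 ended without active library 2 or 3, any IBA library, or torpor library 2 or 3 (adjusted p up to 0.104). A replicate block ended both calls (adjusted p = 0.177 for Dnajb9 and 0.161 for Fkbp2). Dnajb9 was also not called by edgeR (adjusted p = 0.0599) or with a pseudocount of 0.1 (adjusted p = 0.0564).

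Znf331, a zinc finger gene, stood at 94.5, 80.0, 86.5, 59.5 and 106 CPM in IBA, at 208, 213, 173, 178 and 162 CPM in the active libraries and at 86.0, 96.5, 93.8, 133 and 96.9 CPM in the torpor libraries. IBA and torpor overlapped and both lay below all active libraries. The difference from the mean of both states was −0.70 ± 0.12 (adjusted p = 0.0377), made up of −1.14 ± 0.14 against active (adjusted p = 8.72e-04) and −0.25 ± 0.14 against torpor (adjusted p = 0.343). Torpor lay below active by −0.89 (adjusted p = 6.52e-04). The call ended without any of active libraries 1 to 3, IBA libraries 1 to 4 and torpor libraries 2, 3 and 5 (adjusted p up to 0.137). It was also lost by edgeR (adjusted p = 0.0599) and with a replicate block (adjusted p = 0.177).

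The 4 called genes without a symbol in the table each differed from 1 of the other states. LOC110597802, annotated in RefSeq as a long non-coding RNA, stood at 20.2, 29.1, 19.2, 37.3 and 21.5 CPM in torpor, at 1.27 to 2.74 CPM in IBA and at 2.10 to 2.88 CPM in the active libraries. It was a torpor-high transcript, with −3.10 ± 0.19 against torpor (adjusted p = 3.26e-08) and −0.17 ± 0.19 against active (adjusted p = 0.638). LOC101968149 showed the same form at a low level, with 1.97 to 2.90 CPM in torpor and at most 0.330 CPM in any IBA or active library. LOC110597465, annotated as a long non-coding RNA, was higher in the active libraries at 8.50 to 13.7 CPM, with 1.51 to 2.93 CPM in IBA and 2.24 to 4.53 CPM in torpor. It overlaps Vac14 in the RefSeq annotation, and since the strand setting of the read counting is not given, its reads cannot be told apart from those of Vac14. Of the other called genes, Slc19a3 and Znf366 each overlap a gene with an identifier only, and the same holds for them. LOC101964668, named Fam187a in RefSeq, stood at 9.83 to 24.5 CPM in the active libraries, 0.333 to 3.86 CPM in IBA and 1.52 to 3.23 CPM in torpor. For these 4 genes IBA overlapped the state it did not differ from, and their differences from the mean of both states were −1.64 ± 0.16, −0.85 ± 0.13, −1.05 ± 0.16 and −1.48 ± 0.26 in the order given (adjusted p = 1.08e-04, 0.00836, 0.0100 and 0.0377). The call of LOC101964668 held only when active 5, IBA 2 or torpor 1 was left out (adjusted p otherwise up to 0.160). It was also lost by edgeR (adjusted p = 0.134), with a pseudocount of 0.1 (adjusted p = 0.0969) and with a replicate block (adjusted p = 0.0808). The other 3 calls held in every leave-one-out fit that tested them, which for LOC101968149 was 10 of 15, because without a torpor library it fell under the filter. LOC101968149 thus passed the filter through its torpor libraries alone. Its call was lost by edgeR (adjusted p = 0.185), with a pseudocount of 0.1 (adjusted p = 0.0699) and with a replicate block (adjusted p = 0.0596). The replicate block also ended the call of LOC110597465 (adjusted p = 0.0596).

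**Figure D2:**
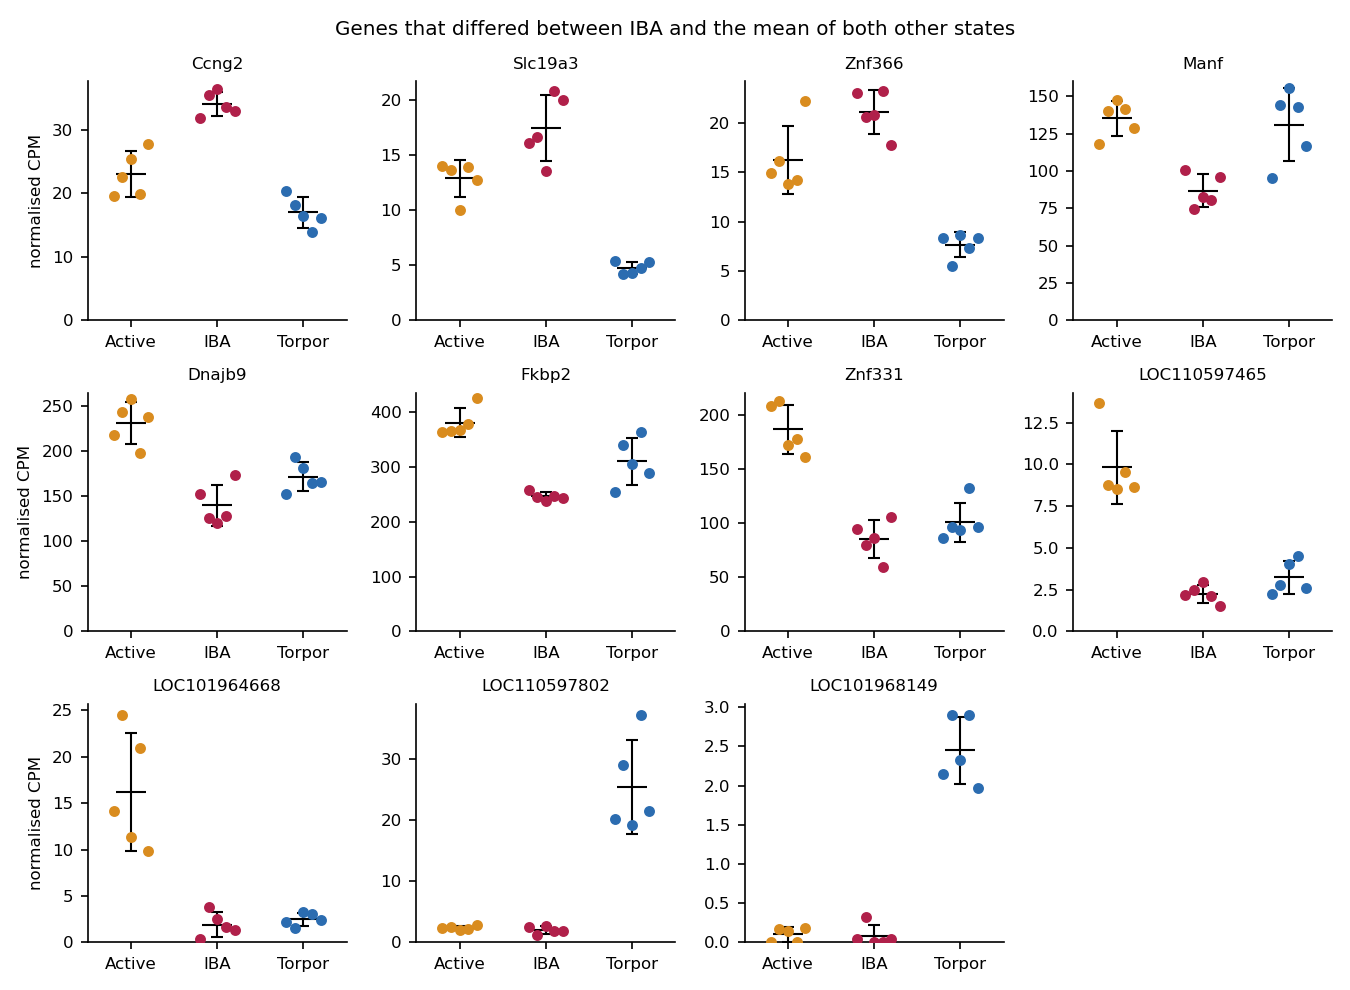
Normalised CPM of the 11 genes that passed against the mean of both states, 1 point per library, with the mean and SD of each state (n = 5); every y axis starts at 0. IBA stands above both other states for Ccng2 and under both for Manf apart from torpor library 1, while for the other 9 genes IBA overlaps at least 1 state.

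Ifih1, Kdm4a and Ndufb11 passed against each state separately and missed the threshold for the averaged contrast by limma-trend and edgeR, while DESeq2 called all of them for it. By limma-trend the averaged contrast passed for Ifih1 without active library 4, active library 5 or torpor library 1 (adjusted p = 0.0459, 0.0236 and 0.0381). It passed for Kdm4a without torpor library 1 or 5 (adjusted p = 0.0279 and 0.0326), and for Ndufb11 without torpor library 5 (adjusted p = 0.0499). Kdm4a, a histone lysine demethylase, was a peak, with 44.1, 45.3, 46.8, 43.7 and 49.3 CPM in IBA, 28.9, 28.6, 31.6, 29.2 and 34.1 CPM in the active libraries and 39.2, 32.4, 34.1, 35.2 and 23.1 CPM in the torpor libraries. It rose by 0.57 ± 0.12 against active (adjusted p = 0.0242) and by 0.49 ± 0.12 against torpor (adjusted p = 0.0315), and its difference from the mean of both was 0.53 ± 0.10 (adjusted p = 0.0590). Ifih1, a cytoplasmic sensor of double-stranded RNA that triggers interferon production, stood at 21.1, 19.5, 24.6, 29.5 and 23.5 CPM in IBA, at 12.6, 14.1, 11.3, 17.2 and 19.97 CPM in the active libraries and at 12.7 to 15.2 CPM in torpor. A single crossing kept it from being a peak, active library 5 above IBA library 2. It rose by 0.64 ± 0.15 against active (adjusted p = 0.0408) and by 0.73 ± 0.15 against torpor (adjusted p = 0.0146). Ndufb11, a subunit of respiratory complex I, stood at 93.2 to 109 CPM in IBA, 123 to 133 CPM in the active libraries and 109 to 130 CPM in torpor, where torpor library 5 touched the top of the IBA range. It fell by −0.34 ± 0.08 against active (adjusted p = 0.0375) and by −0.32 ± 0.08 against torpor (adjusted p = 0.0335). The numbers called against each state were small enough for single libraries to change them. The higher count of 3 fell to 0 without active library 1, 2, 3 or 4 or IBA library 3 or 4. The lower count of 2 fell to 0 without active library 2, 3 or 4, IBA library 3 or 4 or torpor library 3.

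Complete separation of the IBA libraries was found for 44 genes (0.284% of those tested), of which 19 were peaks (0.123%) and 25 were troughs (0.161%). By limma-trend, and by edgeR on whole reads recovered from the values, Ccng2 was the 1 peak whose difference from the mean of both states passed an adjusted p of 0.05, and no trough passed. DESeq2 on the same reads called 11 of the peaks and 16 of the troughs, in a fit that called 174 genes in all. The differences of the peaks ran from 0.25 to 1.00 with a median of 0.59, and those of the troughs had a median of −0.35. A further 158 genes for peaks and 181 for troughs were 1 library short of separation. The margin was thin for several genes. The gap between the nearest IBA and the nearest other library was below the value of 1 read (0.0409 CPM in the deepest library) for 5 peaks and 2 troughs. Among the named peaks below, these were Prpf38b, Adpgk, Serac1 and CUNH14orf28. Prpf38b lay just inside, with 50.4 CPM in both of its nearest libraries, and Ifih1 and Manf lay just outside through the 1 crossing library each. Of the peaks 5 had a gap over 10%, namely Ccng2, Tbc1d13, Max, Kdm4a and LOC101977861 (Cyp26a1 in RefSeq, at about 1 CPM), and no trough had one. LOC101977861 stood at 0.904 CPM or less in all other libraries and passed the filter through its 5 IBA libraries alone. A gene so low elsewhere could enter only as a complete peak, so its separation was fixed by the filter. The genes below were taken by rule as the 15 largest differences in each direction among those with a symbol and a mean log2 level of at least 2. Apart from Ccng2 their differences from the mean of both states did not pass the threshold by limma-trend with all libraries. Without active library 4 and torpor library 2 the named peaks Znf646, Tbc1d13 and Max passed as well (differences of 0.77, 0.45 and 0.45, adjusted p = 0.0174, 0.0488 and 0.0404). Without torpor libraries 4 and 5 Kdm4a and Prpf38b did (0.47 and 0.50, adjusted p = 0.0287 and 0.0449).

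Among the named peaks, genes of signalling and energy sensing included Prkab2, a regulatory subunit of AMP-activated protein kinase. It stood at 36.9, 39.2, 39.6, 44.9 and 46.5 CPM in IBA, at 28.02, 29.0, 27.9, 30.7 and 31.4 CPM in the active libraries and at 34.3, 36.2, 28.4, 32.3 and 26.5 CPM in the torpor libraries. IBA overlapped neither other state, and the gap to torpor library 2 was 1.73%. Prkab2 rose by 0.48 ± 0.10 against active (adjusted p = 0.0326), and its difference from torpor was 0.39 ± 0.10 (adjusted p = 0.0502). Max, the obligate partner of MYC in binding DNA, stood at 75.0, 85.2, 74.0, 94.9 and 88.1 CPM in IBA, at 60.6, 59.7, 56.0, 35.5 and 64.2 CPM in the active libraries and at 63.1, 37.5, 57.7, 65.8 and 59.0 CPM in the torpor libraries. The lowest IBA library stood 12.5% above the highest other one, and active library 4 and torpor library 2 were far below the rest of their states. Its difference was 0.59 ± 0.14 (adjusted p = 0.136). Adpgk, an ADP-dependent glucokinase, stood at 51.5 ± 6.86 CPM in IBA, 40.7 ± 3.74 CPM in the active state and 44.0 ± 1.31 CPM in torpor (SD, n = 5 each), with a difference of 0.27 ± 0.09 (adjusted p = 0.231). Its gap to the nearest other library was 0.0147 CPM, below the value of 1 read.

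Other named peaks encode proteins of membranes, vesicles and protein turnover. Clcn6, a chloride and proton exchanger of late endosomes, stood at 202, 184, 207, 198 and 181 CPM in IBA, at 105, 123, 126, 41.6 and 173 CPM in the active libraries and at 152, 46.2, 154, 113 and 155 CPM in the torpor libraries. Its spread within the active and torpor states was 47.6 and 47.0 CPM (SD), and its difference was 0.84 ± 0.31 (adjusted p = 0.292). Tbc1d13, a GTPase-activating protein of Rab GTPases, stood at 50.6 to 60.0 CPM in IBA, 18.05 to 41.0 CPM in the active libraries and 24.0 to 44.6 CPM in torpor (0.63 ± 0.17, adjusted p = 0.162). Pigo, which adds ethanolamine phosphate to glycosylphosphatidylinositol anchors, stood at 34.8 to 46.1 CPM in IBA, 14.4 to 31.5 CPM in the active libraries and 14.8 to 33.2 CPM in torpor (0.69 ± 0.19, adjusted p = 0.162). Ube3b, a ubiquitin ligase, stood at 62.7 to 69.6 CPM in IBA against 22.6 to 60.8 CPM in the active libraries and 32.7 to 50.2 CPM in torpor (0.60 ± 0.17, adjusted p = 0.184). For Znf646, Clcn6, Pigo, Tbc1d13, Tmem229b, Ube3b and Max the lowest active library was library 4 and the lowest torpor library was library 2. Serac1, a protein of phospholipid remodelling, and Tmem229b had differences of 0.38 ± 0.12 and 0.61 ± 0.16 (adjusted p = 0.221 and 0.150).

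The other named peaks are genes of nuclear proteins and 1 open reading frame of unknown function, CUNH14orf28. Znf646, a zinc finger gene, had the largest difference, 1.00 ± 0.22 (adjusted p = 0.121), with 10.8 to 15.02 CPM in IBA, 4.04 to 10.1 CPM in the active libraries and 1.72 to 6.85 CPM in torpor. It rose against torpor (1.28 ± 0.26, adjusted p = 0.0141) and its difference from active was 0.71 ± 0.26 (adjusted p = 0.145). Mlh3, a DNA mismatch repair protein, stood at 35.5 to 40.9 CPM in IBA, 29.4 to 34.9 CPM in the active libraries and 26.4 to 30.8 CPM in torpor. It rose against torpor by 0.38 ± 0.09 (adjusted p = 0.0299), and against active the difference was 0.20 ± 0.09 (adjusted p = 0.227). Prpf38b, a splicing factor, and CUNH14orf28 had differences of 0.42 ± 0.10 and 0.34 ± 0.10 (adjusted p = 0.136 and 0.218).

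**Figure D3:**
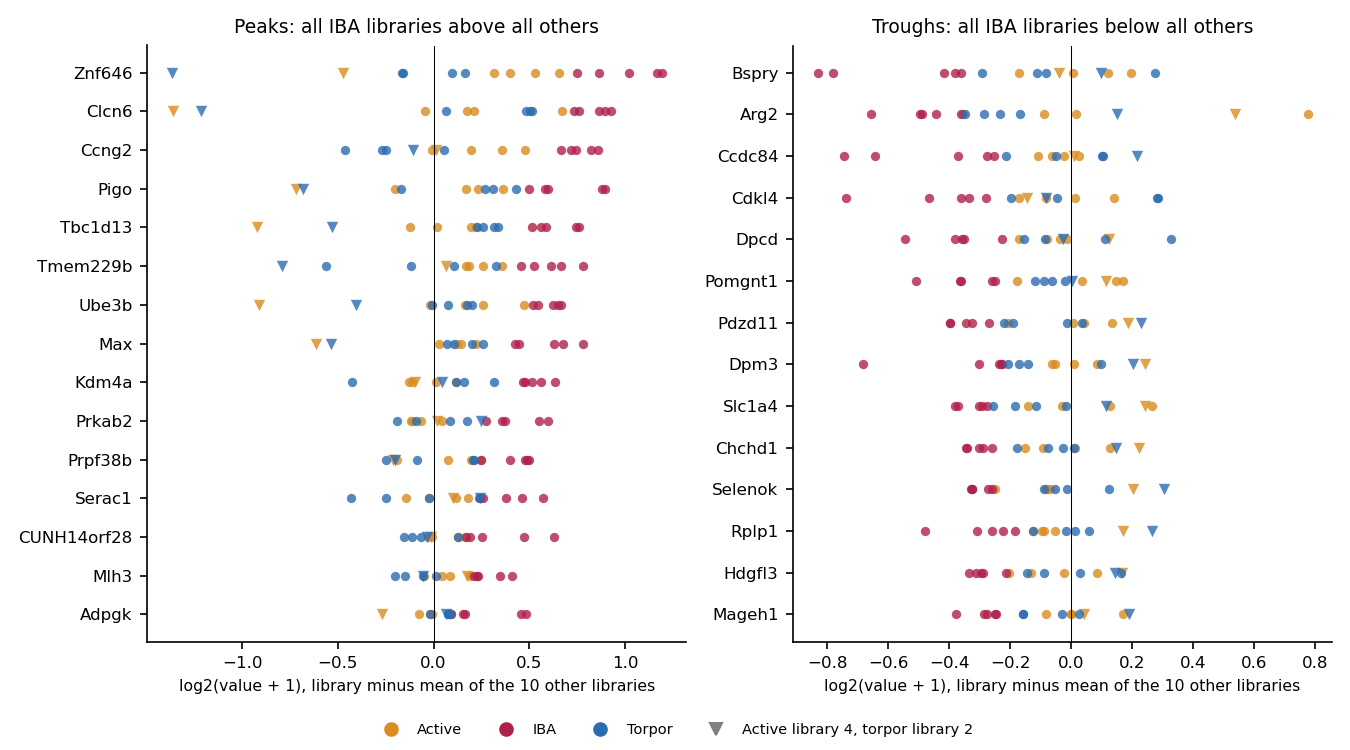
The 15 named peaks (left) and 14 of the 15 named troughs (right), with log2(value + 1) of each library minus the mean of the 10 active and torpor libraries on the x axis. Triangles mark active library 4 and torpor library 2, which lie far to the left for Clcn6, Tbc1d13, Ube3b, Max and Pigo, while the 5 red IBA points lie outside all others in every row by construction.

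The troughs had smaller differences than the peaks and several were abundant transcripts. Slc1a4, a transporter of neutral amino acids, stood at 206 ± 6.90 CPM in IBA, 277 ± 33.3 CPM in the active state and 244 ± 25.0 CPM in torpor (SD, n = 5 each). It fell against active by −0.42 ± 0.09 (adjusted p = 0.0367), and its difference from torpor was −0.23 ± 0.09 (adjusted p = 0.174). Arg2, the mitochondrial arginase, stood at 13.4 to 16.6 CPM in IBA, 16.7 to 37.7 CPM in the active libraries and 16.8 to 24.1 CPM in torpor (−0.49 ± 0.15, adjusted p = 0.221).

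Troughs with roles in protein synthesis and modification were each modest. Rplp1, a protein of the ribosomal stalk, stood at 288, 280, 273, 264 and 235 CPM in IBA, at 306, 300, 315, 369 and 308 CPM in the active libraries and at 300, 394, 330, 341 and 324 CPM in the torpor libraries (−0.29 ± 0.08, adjusted p = 0.158). Chchd1, a subunit of the mitochondrial ribosome, stood at 68.9 ± 1.78 CPM in IBA against 87.4 ± 9.52 CPM in the active state and 84.3 ± 7.08 CPM in torpor (−0.31 ± 0.08, adjusted p = 0.136). Selenok, a selenoprotein of the endoplasmic reticulum membrane, stood at 144 to 151 CPM in IBA, 152 to 208 CPM in the active libraries and 170 to 223 CPM in torpor. It fell against torpor by −0.36 ± 0.09 (adjusted p = 0.0463), with −0.25 ± 0.09 against active (adjusted p = 0.160). Pomgnt1, which extends O-mannose glycans of dystroglycan, stood at 19.4 to 23.5 CPM in IBA, 24.7 to 31.8 CPM in the active libraries and 25.8 to 28.2 CPM in torpor. It fell against active by −0.41 ± 0.10 (adjusted p = 0.0446), with −0.29 ± 0.10 against torpor (adjusted p = 0.104). Dpm3, which stabilises the enzyme that makes the mannose donor of glycosylation, had a difference of −0.34 ± 0.10 (adjusted p = 0.194).

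The remaining troughs have other or less defined roles. Ccdc84, a component of the minor spliceosome, stood at 17.8, 18.1, 16.6, 13.6 and 12.6 CPM in IBA, 20.1 to 22.2 CPM in the active libraries and 18.6 to 25.4 CPM in torpor. It fell against torpor (−0.49 ± 0.12, adjusted p = 0.0339), and its difference from active was −0.43 ± 0.12 (adjusted p = 0.0785). Dpcd, a gene associated with cilia, stood at 110 to 137 CPM in IBA, 143 to 175 CPM in the active libraries and 144 to 202 CPM in torpor, and fell against torpor by −0.41 ± 0.10 (adjusted p = 0.0306; against active −0.34 ± 0.10, adjusted p = 0.0817). Cdkl4, a kinase of the cyclin-dependent kinase-like family, fell against torpor by −0.48 ± 0.12 (adjusted p = 0.0384), with −0.39 ± 0.12 against active (adjusted p = 0.104). Bspry had the largest difference of the named troughs, −0.55 ± 0.13 (adjusted p = 0.136), at 2.75 to 4.19 CPM in IBA and 4.45 to 7.08 CPM in the 10 other libraries. Pdzd11, Hdgfl3 and Mageh1 had differences of −0.35 ± 0.08, −0.29 ± 0.08 and −0.29 ± 0.07 (adjusted p = 0.136, 0.194 and 0.139).

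The places of active library 4 and torpor library 2 among these genes were counted beside their places over the whole table. Active library 4 was the lowest active library for 9 of the 15 named peaks (29.3% of all tested genes) and the highest for 7 of the 15 named troughs (26.7%). Torpor library 2 was the lowest torpor library for 7 of the named peaks (25.4%) and the highest for 10 of the named troughs (25.9%). Leaving out a library of any state can only add separations, apart from genes that then fall under the filter. Without both, 27 peaks and 29 troughs were counted, and 8 genes were called higher and 4 lower against the mean of both states. The part of these libraries in the differences was otherwise not tested. Of the 30 named peaks and troughs 10 overlap another gene in the RefSeq annotation, among them Max with Churc1, Mlh3 with Eif2b2 and Dpcd with Poll, and since the strand setting of the read counting is not given, their reads cannot be told apart from those of the neighbour.

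The unfolded protein response is the set of genes, driven by transcription factors that include Xbp1 and Atf4, by which cells adjust chaperones and degradation to the load of the endoplasmic reticulum. Its list, like the lists below, was chosen with earlier results of these data known. The counts beside those of all tested genes are therefore a description and not a test. Of 21 measured genes of this list, 2 fell by limma-trend (Manf and Dnajb9) and none rose against the mean of both states, beside 0.0516% lower over all tested genes. The median difference of the list was −0.27 against 0.00 over all genes, and 11 of its genes were lower at an unadjusted p under 0.05 (6.21% over all tested genes), with none higher. DESeq2 called Creld2 in addition, and edgeR called none of the 21. The IBA mean lay below both other states for 14 of the 21, beside 4025 of all 15501 tested genes. Against active 6 fell, with a list median of −0.40, and against torpor 1 fell, with a list median of −0.11. Over all tested genes 0.703% and 0.961% fell in these comparisons.

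Atf4 stood at 83.6, 69.7, 72.4, 60.3 and 61.6 CPM in IBA, at 97.4 to 113 CPM in the active libraries and at 58.3 to 81.3 CPM in torpor. It fell against active by −0.56 (adjusted p = 0.0208), and its difference from torpor was −0.06 (adjusted p = 0.803). Xbp1 stood at 35.0 CPM in IBA, 55.3 CPM in the active state and 33.8 CPM in torpor (means), a fall of −0.63 against active (adjusted p = 0.0204) and a difference of 0.04 from torpor (adjusted p = 0.883). Creld2, a folding stress protein of the endoplasmic reticulum, stood at 70.6, 38.3, 52.2, 51.9 and 67.2 CPM in IBA, at 92.1 to 114 CPM in the active libraries and at 48.0 to 101 CPM in torpor. It fell against active by −0.86 (adjusted p = 0.0364), with −0.35 against torpor (adjusted p = 0.327). Herpud1, a degradation factor of the membrane, fell against active by −0.39 (adjusted p = 0.0364) and stood 0.09 from torpor (adjusted p = 0.598). Ddit3, the stress transcription factor also called CHOP, had a difference of −0.27 from active (adjusted p = 0.307) and −0.52 from torpor (adjusted p = 0.0587). Hspa5, the main chaperone of the endoplasmic reticulum, had a mean of 1967 CPM in IBA, 2621 CPM in the active state and 2136 CPM in torpor, and its difference from the mean of both was −0.27 (unadjusted p = 0.0557).

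**Figure D4:**
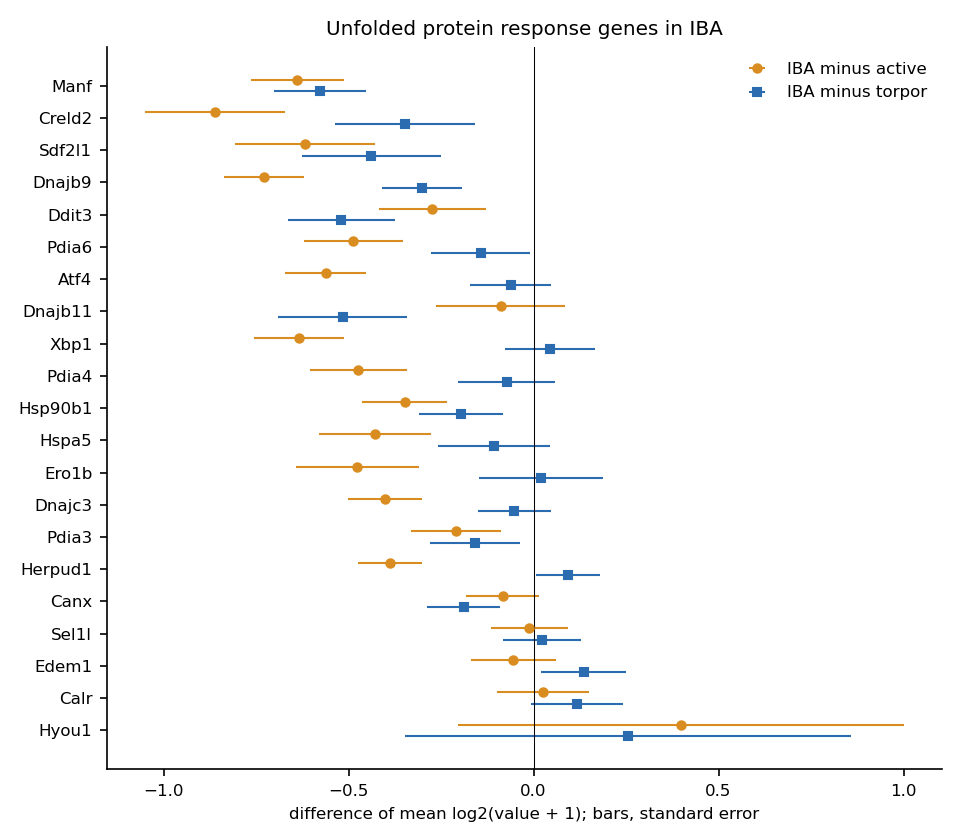
Difference of IBA from active (circles) and from torpor (squares) in mean log2(value + 1) for the 21 measured genes of the unfolded protein response, with standard errors as bars. Most circles lie left of 0 and many squares lie near 0, and Manf has both symbols near −0.6.

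Heat shock chaperones, which fold and refold proteins outside the endoplasmic reticulum, were measured in 25 genes. By limma-trend and edgeR none passed against the mean of both states, and DESeq2 called 1 lower (Hsp90aa1). At an unadjusted p under 0.05, 3 were lower (6.21% over all tested genes), with a list median of −0.10. Hsp90aa1, the inducible form of the Hsp90 chaperone, stood at 556, 518, 562, 586 and 734 CPM in IBA, at 804 to 1237 CPM in the active libraries and at 519 to 1114 CPM in torpor. IBA lay below every active library and overlapped torpor, and Hsp90aa1 fell against active by −0.76 (adjusted p = 0.0345; against torpor −0.32, adjusted p = 0.300). Without torpor libraries 4 and 5 its difference from the mean of both states passed (−0.66, adjusted p = 0.0449). Stip1, a co-chaperone, fell against active by −0.65 (adjusted p = 0.0242) and had a difference of 0.19 from torpor (adjusted p = 0.447).

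Immediate early genes, which neurons switch on within minutes of activity, gave no call against the mean of both states by limma-trend or edgeR among 19 measured members, and 1 by DESeq2 (Arc). Arc, Dusp6, Npas4 and Egr1 were higher at an unadjusted p under 0.05, beside 6.53% higher over all tested genes. The list median was 0.04, with 11 members above 0 and 8 below, beside 7923 of all 15501 tested genes above 0. Against active the list median was −0.11 and against torpor 0.35. For 5 of the 19 the IBA mean lay above both other states, beside 4073 of all 15501 tested genes. Arc, a synaptic activity gene, stood at 40.5, 5.56, 4.82, 10.9 and 6.75 CPM in IBA, at 2.89, 8.55, 2.15, 1.69 and 3.07 CPM in the active libraries and at 1.21, 1.52, 3.03, 3.63 and 1.22 CPM in the torpor libraries. Every IBA library lay above every torpor library, active library 2 overlapped the IBA range, and IBA library 1 stood far above the other 4. Arc rose against torpor (1.86 ± 0.48, adjusted p = 0.0491), and its difference from the mean of both states was 1.61 ± 0.41 (adjusted p = 0.156) and 1.13 without IBA library 1. IBA library 1 was also the highest library for Egr1, an activity-induced transcription factor, at 63.8 CPM against 11.4 to 22.2 CPM in the other 4. It led Npas4, an activity-dependent transcription factor of neurons, at 7.87 CPM against 0.800 to 2.37 CPM in the other 4. Dusp6, a phosphatase of the ERK pathway, did not show this, with 17.4 to 23.5 CPM over the 5 IBA libraries. It rose against torpor (0.66 ± 0.15, adjusted p = 0.0277), and its difference from the mean of both was 0.40 ± 0.13 (adjusted p = 0.242).

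The list of magnocellular neuropeptides and regulators had 29 measured members, none called by limma-trend or edgeR and 1 by DESeq2 (Pcsk1), and a median of −0.18. At an unadjusted p under 0.05, 5 members were lower and 1 higher, beside 6.21% and 6.53% over all tested genes. Pcsk1, a convertase that cuts prohormones in secretory vesicles, stood at 649, 268, 522, 376 and 546 CPM in IBA, at 1202, 1019, 865, 1094 and 666 CPM in the active libraries and at 629, 793, 853, 743 and 320 CPM in the torpor libraries. IBA lay below all active libraries and overlapped torpor through its library 5 and library 1. The difference was −0.78 ± 0.24 (adjusted p = 0.231). Pcsk2, the related convertase, had the opposite sign, with 88.2 to 133 CPM in IBA, 55.4 to 104 CPM in the active libraries and 78.3 to 107 CPM in torpor (0.40 ± 0.12, adjusted p = 0.230). Pam, which amidates peptide hormones, stood at 107 ± 13.1 CPM in IBA, 147 ± 26.6 CPM in the active state and 129 ± 21.0 CPM in torpor (−0.35 ± 0.12, adjusted p = 0.244). The summed level of the list ran from 4559 to 6575 CPM in IBA, 6040 to 6621 CPM in the active state and 5390 to 7699 CPM in torpor.

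Of 21 insulin and FOXO target genes, 1 rose (Ccng2) and none fell by limma-trend, beside 0.0194% higher and 0.0516% lower over all tested genes, with a list median of 0.05. edgeR called Ccng2 alone, and DESeq2 called Ccng2 higher and Gadd45a and Trib2 lower. At an unadjusted p under 0.05, 1 member was higher and 3 were lower (6.53% and 6.21% over all tested genes). A difference above 0 was found for 12 of the 21, beside 7923 of all 15501 tested genes. Trib2, a pseudokinase, stood at 28.3 ± 5.86 CPM in IBA, 41.0 ± 11.7 CPM in the active state and 46.8 ± 7.23 CPM in torpor, and fell against torpor by −0.71 (adjusted p = 0.0384; against active −0.49, adjusted p = 0.145). Gadd45a, a growth arrest gene, stood at 10.5, 10.5, 9.90, 6.37 and 9.73 CPM in IBA, at 9.83 to 14.1 CPM in the active libraries and at 12.8 to 19.3 CPM in torpor. It lay below every torpor library and fell against torpor by −0.70 (adjusted p = 0.0221), with −0.36 against active (adjusted p = 0.202). For Trib2 and Gadd45a the differences from the mean of both states were −0.60 and −0.53, which did not pass by limma-trend (adjusted p = 0.142 and 0.140) and passed by DESeq2 (adjusted p = 0.0206 and 0.0193).

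Chromatin modifiers had the highest median of the 20 pathway lists, 0.12, with 21 of 24 members above 0, beside 7923 of all 15501 tested genes. None was called by limma-trend or edgeR against the mean of both states, and DESeq2 called Kdm4a. At an unadjusted p under 0.05, 3 were higher (6.53% over all tested genes). Kdm4a was the member called against each state. The others that passed did so against torpor, where 5 of 24 rose (1.97% over all tested genes) with a list median of 0.27, while against active Kdm4a was the 1 that rose (0.600% over all tested genes) and the median was −0.02. Ep300, a histone acetyltransferase, stood at 33.3 ± 8.35 CPM in IBA, 30.2 ± 4.45 CPM in the active state and 21.1 ± 2.58 CPM in torpor, and rose against torpor by 0.60 (adjusted p = 0.0450). Kdm5b, a histone demethylase, rose against torpor by 0.46 (adjusted p = 0.0318) and stood 0.02 from active (adjusted p = 0.940). Crebbp, the acetyltransferase related to Ep300, rose against torpor by 0.41 (adjusted p = 0.0346) and had a difference of −0.26 from active (adjusted p = 0.174).

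In energy metabolism no member of the lists for glycolysis (21 measured), fat and ketone use (23) or hypoxia response (19) passed against the mean of both states by limma-trend or edgeR. DESeq2 called Slc16a1 and Pdk4. At an unadjusted p under 0.05 there were 4, 3 and 1 higher and 2, 0 and 0 lower members in these lists. Over all tested genes 6.53% were higher and 6.21% lower. Slc16a1, which carries lactate and ketone bodies across membranes, stood at 136, 153, 181, 161 and 163 CPM in IBA, at 74.6, 84.4, 65.8, 125 and 61.8 CPM in the active libraries and at 137 to 171 CPM in torpor. It rose against active by 0.98 (adjusted p = 0.00399) and stood 0.07 from torpor (adjusted p = 0.842). Active library 4 was the highest active library, and without it the difference from the mean of both states passed (adjusted p = 0.0106, with 0.136 for all libraries). Pdk4, the kinase that closes pyruvate dehydrogenase when fat is burned, went the other way, near active with 25.1 ± 2.85 against 28.4 ± 3.27 CPM, and rose against torpor, where it stood at 11.0 ± 1.85 CPM (1.13, adjusted p = 1.11e-04). Without torpor libraries 4 and 5 the difference of Pdk4 from the mean of both states passed (0.55, adjusted p = 0.0444).

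Temperature and time of day lists gave no call by limma-trend or edgeR either, and DESeq2 called Clk4, Srsf6 and Ciart. At an unadjusted p under 0.05 the cold list held 3 higher and 5 lower members and the clock list 2 and 3 (6.53% and 6.21% over all tested genes). In the list of cold-inducible RNA-binding proteins and splicing regulators (24 measured, median −0.05), Clk4 and Clk1, kinases of splicing factors, rose against torpor by 0.97 and 0.98 (adjusted p = 4.15e-05 and 0.00113) and had differences of −0.17 and −0.29 from active (adjusted p = 0.353 and 0.248). The difference of Clk4 from the mean of both states passed without active library 4 (0.44, adjusted p = 0.0275). Rbm3, the cold-induced RNA-binding protein, stood at 52.8 ± 5.89 CPM in IBA, 25.7 ± 3.67 CPM in the active state and 69.2 ± 14.97 CPM in torpor. It rose against active by 1.01 (adjusted p = 0.00193), and its difference from torpor was −0.37 (adjusted p = 0.147). Among 20 clock genes (median −0.02), Ciart, a repressor of the clock, fell against torpor by −1.62 (adjusted p = 1.91e-04), from 33.0 ± 7.06 to 9.96 ± 1.93 CPM, with 7.47 ± 2.11 CPM in the active state. Tef, a clock output factor, stood at 106 ± 17.9 CPM in IBA, 71.5 ± 13.9 CPM in the active state and 86.3 ± 17.5 CPM in torpor (0.44 ± 0.14, adjusted p = 0.221).

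Mthfd2, a mitochondrial folate enzyme of the amino acid response, stood at 42.7, 32.9, 40.4, 33.0 and 40.7 CPM in IBA, at 56.1 to 88.1 CPM in the active libraries and at 32.6 to 59.4 CPM in torpor. It fell against active by −0.86 (adjusted p = 0.0116), and its difference from the mean of both was −0.58 ± 0.13 (adjusted p = 0.121, and 0.0343 without torpor library 5). DESeq2 called Mthfd2 and no other of the 17 measured genes of its list, whose median was −0.07. By limma-trend and edgeR no gene was called in the lists of glucocorticoid-responsive genes (15 measured), cholesterol synthesis (21), antioxidant and NRF2 targets (21), inflammatory response (16), osmotic response (14), thyroid hormone response (10), ribosome biogenesis (25) or synaptic vesicle release (23), and their medians ran from −0.10 to 0.05. At an unadjusted p under 0.05 each held 0 to 3 higher and 0 to 5 lower members (6.53% and 6.21% over all tested genes). DESeq2 called Pdk4, which the glucocorticoid list shares, and no other. Over all 32 lists, 3 of 505 measured genes were called by limma-trend, 1 by edgeR and 16 by DESeq2, beside 11, 6 and 174 of all 15501 tested genes.

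**Figure D5:**
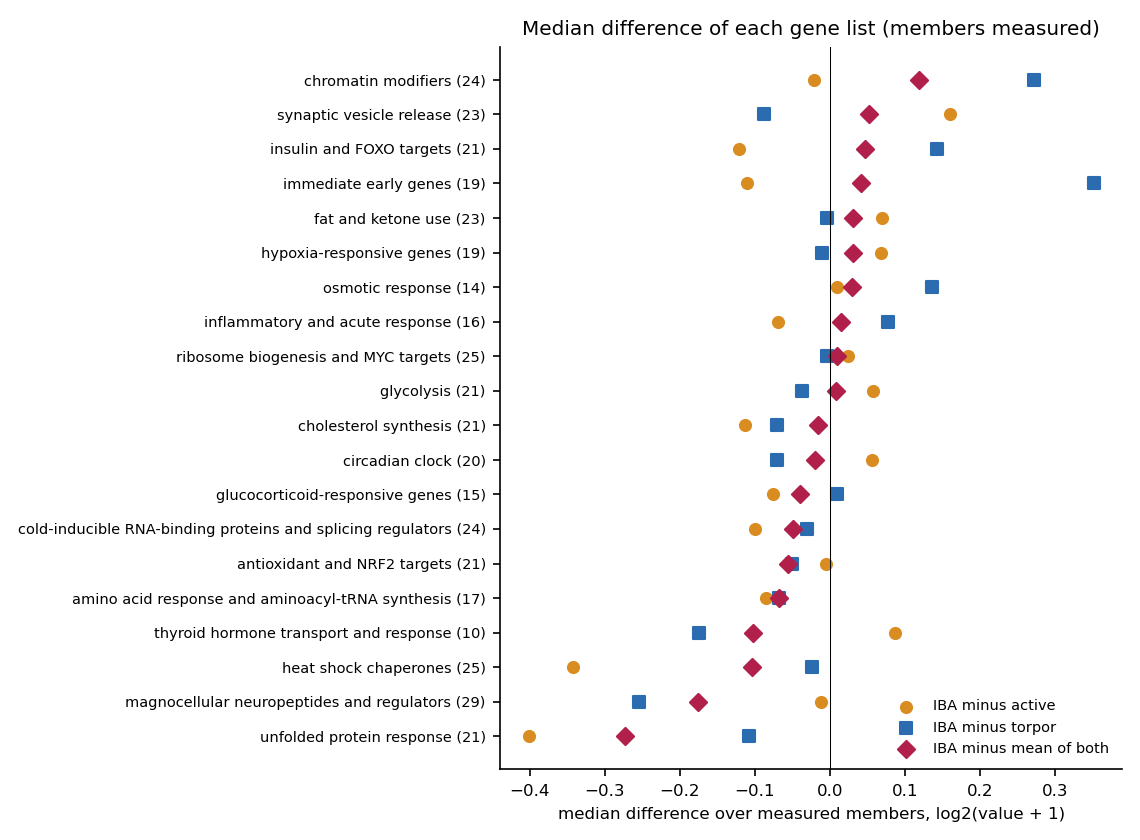
Median difference of the measured members of each of 20 pathway lists, in log2(value + 1), for IBA minus active (circles), IBA minus torpor (squares) and IBA minus the mean of both (diamonds), with the number of members in brackets. The unfolded protein response has the lowest diamond at −0.27 and chromatin modifiers the highest at 0.12, and for several lists the circle and the square lie on opposite sides of 0.

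Markers of the other cells of the block were not called against the mean of both states in any of 12 lists, by limma-trend, edgeR or DESeq2. At an unadjusted p under 0.05 each list held at most 2 higher and 2 lower genes (6.53% and 6.21% over all tested genes). Astrocyte markers had a median of −0.24 over 9 measured genes, and their summed level ran from 3845 to 8511 CPM in IBA, 6127 to 12544 CPM in the active state and 3609 to 5775 CPM in torpor. Gfap, the astrocyte filament protein, made up much of it at 2349 ± 1491 CPM in IBA, 5887 ± 1985 CPM in the active state and 1847 ± 838 CPM in torpor. Fgfr3, a receptor of astrocytes, fell against active by −0.55 (adjusted p = 0.0453; against torpor −0.20, adjusted p = 0.432). Oligodendrocyte markers summed to 3691 to 9548 CPM in IBA, 3008 to 5395 CPM in the active state and 4343 to 14664 CPM in torpor. Endothelial markers had a median of 0.15 over 12 genes, with 10 above 0 and 2 below, beside 7923 of all 15501 tested genes above 0. Against torpor 3 of the 12 rose (1.97% over all tested genes), among them Tek, a receptor of vessel cells (0.49, adjusted p = 0.0470). Pecam1, another member, went the other way, with a difference from the mean of both states of −0.33 to −0.22 over the leave-one-out fits. The astrocyte sums of the active state, like its levels of unfolded protein response genes, reached above those of IBA, and the part of astrocytes in that list was not tested. With oligodendrocyte marker level added to the model as a covariate, 13 genes were called against the mean of both states, among them all 11 above, and no gene passed against each state.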

How the data were processed

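Total RNA of hand-dissected supraoptic nuclei was sequenced from 15 libraries, 5 per state. Reads were processed with Trimmomatic 0.39 and STAR 2.7.7a and counted with featureCounts (Subread 2.0.1), and R 4.2.1 with edgeR 3.38.4 is also listed, per the submitters' processing notes. The genome build, gene annotation and strand setting of the counting were not given in the sources used here. The deposited values are a signal, which the authors gave as normalised CPM, per the file headers; the other deposited columns were not used. Of 16993 genes, 3117 carry an identifier in place of a symbol and 24 a date. Divided by the value of 1 read, 100% of values came to a whole number within 0.1, which recovered the read counts. The vasopressin and oxytocin genes themselves are not analysed here.

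States were taken from the labels. limma-trend (limma 3.58.1, R 4.3.3, trend and robust empirical Bayes) was fitted to log2(value + 1) of the 15 libraries without covariates, for the 15501 genes that reached 1 in 5 or more libraries. Two-sided p-values were adjusted by Benjamini-Hochberg over all tested genes, with a threshold of 0.05. The procedure was tested on simulated data. Alternatives were pseudocounts of 0.1 and 5, no filter or a value of at least 1 in all 15 libraries, median-of-ratios or library-size scaling, active and torpor as 1 group, a replicate block, each library left out, and edgeR 4.0.16 and DESeq2 1.42.0 on the recovered counts. Leaving out pairs of libraries and an oligodendrocyte marker covariate were added after the data were seen. Of these pairs, IBA libraries 2 and 3 did not stand apart on the first component (−0.88 and −1.62, with 3.25 and 1.62 for IBA libraries 1 and 5).

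Named genes are the 15 largest differences in each direction among genes with a symbol and a mean log2 level of 2 or more whose IBA libraries do not overlap the others, and in each list the members with the smallest p, up to 4. The called genes are also named, and 1 of the 15 troughs is not reported here. Xbp1, Herpud1, Ddit3, Hspa5, Stip1 and Crebbp were added after their values were seen, as were LOC101977861 and the genes called against each state. The members and gene lists were chosen with earlier results of these data known. RefSeq (assembly mIctTri1.hap1) served for names and neighbours only, with 89.8% of genes found.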

Additional observations from a re-analysis of the deposited data

Results flagged for a closer look

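Over the 42 genes that were called, were called against each state or were named as peaks or troughs, a library far from the other 4 of its state was searched for in 126 groups of 5, and 12 were found. Chance gives about 1 in 20 such groups. Among the called genes, Fkbp2 stood at 427 CPM in active library 5, with 364 to 379 CPM in the other active libraries. Znf366 stood at 22.2 CPM in active library 5, against 13.8 to 16.1 CPM. Znf331 stood at 133 CPM in torpor library 4, against 86.0 to 96.9 CPM. LOC110597465 stood at 13.7 CPM in active library 1, against 8.50 to 9.54 CPM, and LOC101968149 at 0.330 CPM in IBA library 2, against 0 to 0.0459 CPM.

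Among the peaks, Max stood at 35.5 CPM in active library 4, against 56.0 to 64.2 CPM, and at 37.5 CPM in torpor library 2, against 57.7 to 65.8 CPM. Tbc1d13 stood at 24.0 CPM in torpor library 2, against 41.3 to 44.6 CPM. Adpgk stood at 41.7 CPM in torpor library 4, against 44.2 to 44.9 CPM. Among the lowered genes, Ndufb11 stood at 133 CPM in active library 3, against 123 to 125 CPM, Rplp1 at 369 CPM in active library 4, against 300 to 315 CPM, and Dpm3 at 28.7 CPM in IBA library 5, against 37.6 to 39.7 CPM.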

How the results depend on the processing

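The counts rest on few genes and moved with the setting. Against 3 higher and 8 lower genes (27.3% higher), a pseudocount of 0.1 gave 5 lower, edgeR 3 higher and 3 lower (50.0% higher) and DESeq2 74 and 100 (42.5% higher), 10 of them among the 11. Library-size scaling, which moved the median of all genes to 0.05, gave 8 higher and 8 lower (50.0% higher), with 39 peaks, 10 troughs, and 7 higher and 1 lower against each state. With active and torpor as 1 group 0 higher and 0 lower were called by limma-trend (1462 at an unadjusted p under 0.05). A filter on all 15 libraries gave 5 higher against each state, and DESeq2 gave 12 higher and 24 lower against each state. Without torpor libraries 4 and 5 there were 15 higher and 15 lower, 7 and 7 against each state, 82 peaks and 88 troughs. Without IBA libraries 2 and 3 there were 1 higher and 5 lower, 0 and 1 against each state, 79 peaks and 106 troughs. By their rule, leaving out libraries can only add peaks and troughs, apart from genes that then fall under the filter. Without active library 4 and torpor library 2 there were 8 higher and 4 lower (66.7% higher), and 1 lower against each state. With the oligodendrocyte covariate 0 and 0 passed against each state. Leaving out each library in turn gave 3 to 6 higher (6 when active 4, torpor 1 or torpor 4 was left out), 2 to 18 lower (2 without torpor library 2, 18 without torpor library 1), 0 to 4 higher and 0 to 7 lower against each state, 20 to 58 peaks and 26 to 69 troughs, with 5 to 10 of the 11 genes called. The causes were not tested. Same-numbered libraries of different states had correlations of their deviations from −0.32 to 0.20, over 0.1 in 3 of 15 pairs. The labels do not say whether the numbers pair the samples. The correlations cannot decide it, because libraries with different numbers were not set beside them. With the replicate block, 2 higher and 1 lower were called (66.7% higher), with 0 higher and 0 lower against each state. No gene that was called, called against each state or named by rule changed sign under any of these alternatives. Of the values of these genes, 3538 kept their side of the threshold, 59 newly passed it and 92 no longer passed. Xbp1, Herpud1, Ddit3, Hspa5, Stip1, Crebbp and LOC101977861 were not followed through the alternatives. The 5 libraries per state limit the contrast to differences that are large beside the spread between libraries, and a gene that missed the threshold is not shown to be level.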
